A study of Mus musculus with 2 samples.

Results

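Double-strand break and Fanconi repair genes were represented by 9 genes, Brca1, Brca2, Fanca, Fancd2, Ercc1, Xrcc5, Xrcc6, Prkdc and Atm. They were chosen by name, as the probe sets whose platform annotation gives exactly 1 gene symbol from that list. The choice was made with earlier results of these data known. All 9 were found among the 19938 genes with such a probe set, each with 1 probe set. The series profiled KSL cells, bone marrow cells that carry Kit and Sca-1 and lack lineage markers, the fraction in which haematopoietic stem cells and early progenitors are concentrated. One RNA pool came from Nrf2 knockout mice (Nrf2-/-) and the other from wild-type mice (Nrf2+/+), all C57BL/6J, healthy, untreated as far as the labels say, and 8 to 10 weeks old. Marrow of 5 mice was pooled per genotype before sorting, and each pool was read on 1 Affymetrix Mouse Gene ST 1.0 array. The labels do not give which part of the gene was deleted or in which cells. With 1 pool per genotype there is no replicate check, no test was run, and no p-value is given. The number of arrays limits the precision of every value.

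A double-strand break can be joined directly or copied from the sister chromatid. In direct end joining, the Ku ring, made of the products of Xrcc6 (KU70) and Xrcc5 (KU80), binds the ends and recruits the kinase encoded by Prkdc. In homologous recombination, which works in S and G2 phase, BRCA1 promotes the trimming of the ends and BRCA2 acts in the strand exchange that follows, while the kinase ATM signals that a break is present. The Fanconi pathway removes crosslinks between the DNA strands: a core complex that includes FANCA adds ubiquitin to FANCD2 and FANCI, and nucleases including ERCC1 with its partner XPF, encoded by Ercc4, cut the crosslink out. Loss of Fanconi genes leads to bone marrow failure in humans, and stem cells of the marrow depend on these pathways to survive damage to their DNA.

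Promoter sequences are shown for the genes at both ends of the range of differences, Brca2, Ercc1 and Xrcc5, and for Xrcc6, whose product pairs with that of Xrcc5. They are RefSeq sequences of the GRCm38.p6 build, 250 bases before and 50 bases after the annotated start, written 5′ to 3′ on the strand of the gene. Capitals mark matches, on either strand, to the antioxidant response element core to which NRF2 binds (TGACNNNGC), the E2F site core (TTNNCGC with each N being G or C), the cell cycle homology region (TTTGAA) and the CCAAT box (CCAAT).
Brca2, chr5:150522371-150522670, plus strand: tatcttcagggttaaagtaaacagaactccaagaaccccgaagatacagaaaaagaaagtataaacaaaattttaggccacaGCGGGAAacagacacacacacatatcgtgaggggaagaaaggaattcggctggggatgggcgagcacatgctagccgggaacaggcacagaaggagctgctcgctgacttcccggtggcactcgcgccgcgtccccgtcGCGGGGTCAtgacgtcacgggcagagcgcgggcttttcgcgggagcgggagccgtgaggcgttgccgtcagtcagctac
Ercc1, chr7:19344821-19345120, plus strand: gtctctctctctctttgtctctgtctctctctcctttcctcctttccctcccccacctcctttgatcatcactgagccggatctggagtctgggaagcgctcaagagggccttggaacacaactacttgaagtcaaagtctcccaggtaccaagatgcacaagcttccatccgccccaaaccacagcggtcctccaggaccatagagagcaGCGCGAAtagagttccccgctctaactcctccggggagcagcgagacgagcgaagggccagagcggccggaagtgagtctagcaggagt
Xrcc5, chr1:72307171-72307470, plus strand: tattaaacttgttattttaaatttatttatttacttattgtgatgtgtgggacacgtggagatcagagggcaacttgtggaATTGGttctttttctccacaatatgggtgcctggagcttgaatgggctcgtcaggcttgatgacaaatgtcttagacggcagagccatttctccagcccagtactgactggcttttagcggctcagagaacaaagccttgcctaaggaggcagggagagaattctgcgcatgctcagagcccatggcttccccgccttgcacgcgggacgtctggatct
Xrcc6, chr15:82016119-82016418, plus strand: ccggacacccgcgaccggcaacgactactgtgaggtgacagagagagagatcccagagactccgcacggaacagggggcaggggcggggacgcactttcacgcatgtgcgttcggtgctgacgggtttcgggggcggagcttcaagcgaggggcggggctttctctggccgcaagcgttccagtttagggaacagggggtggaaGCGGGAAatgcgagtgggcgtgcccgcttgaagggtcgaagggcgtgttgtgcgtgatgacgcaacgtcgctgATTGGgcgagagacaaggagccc
In Brca2 the capitals mark, in order, an E2F core and the antioxidant response element core, both read on the opposite strand. In Ercc1 they mark an E2F core, in Xrcc5 a CCAAT box, and in Xrcc6 an E2F core followed by a CCAAT box, each on the opposite strand.

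The table of promoters held 7 of the 9 genes, all but Fancd2 and Prkdc. Brca2 alone of the 7 held the antioxidant response element core, which 14.8% of the promoters of 8063 genes past the level filter described next and 12.5% of all 27025 promoters also held. The E2F core was in 5 of the 7 promoters, those of Brca1, Brca2, Ercc1, Xrcc6 and Atm, against 18.0% of the promoters of genes past the filter and 9.69% of all. The CCAAT box was likewise in 5 of 7, those of Brca1, Fanca, Xrcc5, Xrcc6 and Atm, against 38.8% and 37.9%. The cell cycle homology region was in 0 of the 7, against 11.6% and 18.1%. The promoters of genes past the filter had a median GC content of 61.0%, and the 7 ranged from 48.0% in Xrcc5 to 64.3% in Xrcc6. A match of letters is a description of this window and does not show binding.

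**Figure D1:**
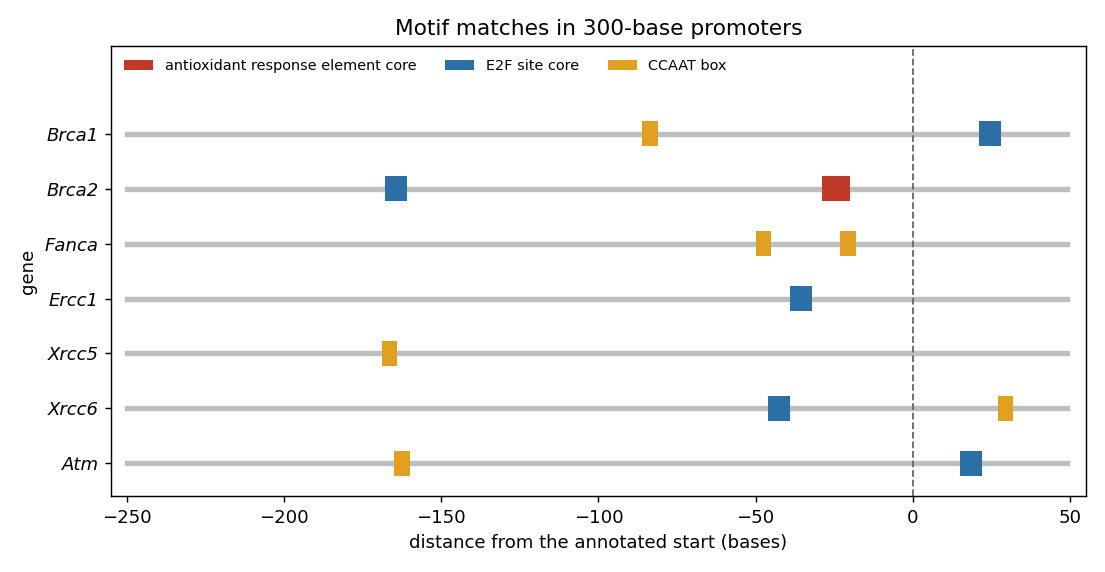
Matches to 3 motifs in the promoters of 7 repair genes, drawn by distance in bases from the annotated start (dashed line), with matches on both strands shown as coloured blocks on a grey bar for the 300 bases searched. Brca2 is the gene with an antioxidant response element core, and Ercc1, Brca1, Atm, Xrcc6 and Brca2 hold an E2F core; no match to the cell cycle homology region was found in the 7.

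As a check of the cells, 14 of 16 stem and progenitor markers measured passed the level filter given next. Of these 14, 8 were higher and 5 lower in the knockout array, with a median difference of 0.09. Their differences ran from −0.45 for Mecom to 0.35 for Meis1, both named after their values were seen. Kit was at 11.21 in knockout cells and 10.93 in wild-type cells on the log2 intensity scale, Cd34 at 11.43 and 11.29, and Flt3 at 10.94 and 10.84; Sca-1 (Ly6a) was not analysed here. Slamf1 and Gfi1, named after their values were seen, were below the filter, Slamf1 at 6.43 and 5.73 and Gfi1 at 6.32 and 6.49. The T cell gene Cd3e was just above it, at 6.70 and 6.82. Of 9 T and NK cell markers measured 3 passed the filter, 2 higher and 1 lower in the knockout array, with Thy1 at 8.91 and 8.55. Of 8 B cell markers 3 passed, 1 higher and 2 lower, with Cd79b at 7.38 and 8.17, a difference of −0.79. Of 7 erythroid markers 2 passed, both higher, with a median of 0.17. Thy1 and Cd79b were named after their values were seen. The level filter was the median over genes of the mean of both arrays, 6.57, which 9970 genes reached. The targeted gene, Nfe2l2, was at 9.07 in knockout cells and 9.16 in wild-type cells, a difference of −0.09, so this probe set did not separate the genotypes. Of 24 known NRF2 target genes measured, 20 were lower in the knockout array, with a median of −0.28. Of the 19 past the filter 17 were lower, with a median of −0.25. The 4 higher genes included Nqo1 at 0.24 and Slc7a11 at 0.63, each below the filter and named after its value was seen. Markers of neutrophils, which a KSL gate should remove, were lower in the knockout array in 19 of the 21 measured, with a median difference of −1.20; of the 15 above the filter level in both arrays 14 were lower, with a median of −0.99. The summed intensity of the 21 neutrophil markers was 13.19 in knockout cells and 14.30 in wild-type cells, in log2; S100a8 was at 10.34 and 11.79, and S100a9 at 11.30 and 12.25. Of 10 monocyte markers measured, 9 were lower, with a median of −0.67. Their summed log2 intensity was 10.67 in knockout cells and 11.04 in wild-type cells. Of the 5 above the filter level in both arrays 4 were lower, with a median of −0.46. The 1 higher was Cd68, at 9.31 in knockout cells and 8.68 in wild-type cells, named after its value was seen. Of 29 mitotic genes past the filter, 20 were higher in the knockout array, with a median of 0.32, and 21 of 32 S phase genes were, with a median of 0.06. The part of other cells and of cell cycle phase in the values of the repair genes was not tested. In a pool of sorted cells, fewer cells of a type and less RNA per cell cannot be told apart.

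All 9 repair genes passed the level filter. In the knockout array 7 of them were higher than in the wild-type array and 2, Xrcc5 and Fancd2, were lower, where 46.5% of the 9970 genes were higher and 52.9% lower. None was at least 2-fold apart, a size that 1.17% of genes reached, 0.411% higher and 0.762% lower. At least 1.5-fold apart were 3 of the 9, Brca2 and Ercc1 higher and Xrcc5 lower, against 6.64% of genes, of which 2.34% were higher and 4.3% lower. The median difference of the 9, knockout minus wild type in log2, was 0.18, and the median over all genes past the filter was −0.02. The 9 did not move as a block: their differences spanned 1.34 in log2 with an SD of 0.46, against an SD of 0.33 over all genes past the filter. For scale, the 515 genes past the filter that have exactly 2 probe sets gave a probe-set error of a difference of 0.31 (SD) or 0.17 by a robust estimate. That error leaves out the spread between mice, sorts and amplifications. By it, 6 of the 9 differences were larger than 1 SD of probe-set error, and those of Brca1, Prkdc and Atm were not. That SD is close to the SD of 0.33 over all genes, so passing it does not set a gene apart. For Rad52, whose difference of −0.31 is near that size, 75.4% of genes past the filter had a smaller difference in either direction. Only Brca2 and Ercc1 of the 9 lay outside the range of −0.73 to 0.57 that held the middle 95% of genes.

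**Figure D2:**
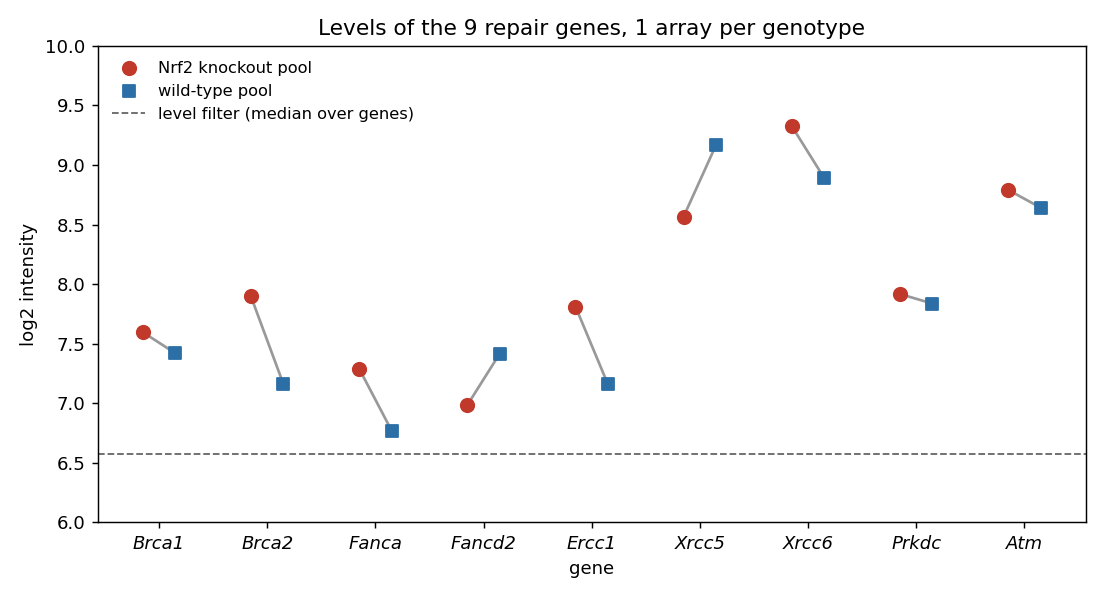
Log2 intensity (vertical axis) of each of the 9 repair genes in the Nrf2 knockout pool (red circle) and the wild-type pool (blue square), 1 array each and so without error bars, with a grey line joining the values of a gene and a dashed line at the level filter of 6.57. The line slopes upward to the wild-type value for Xrcc5 and Fancd2 and downward for the other 7 genes.

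**Figure D3:**
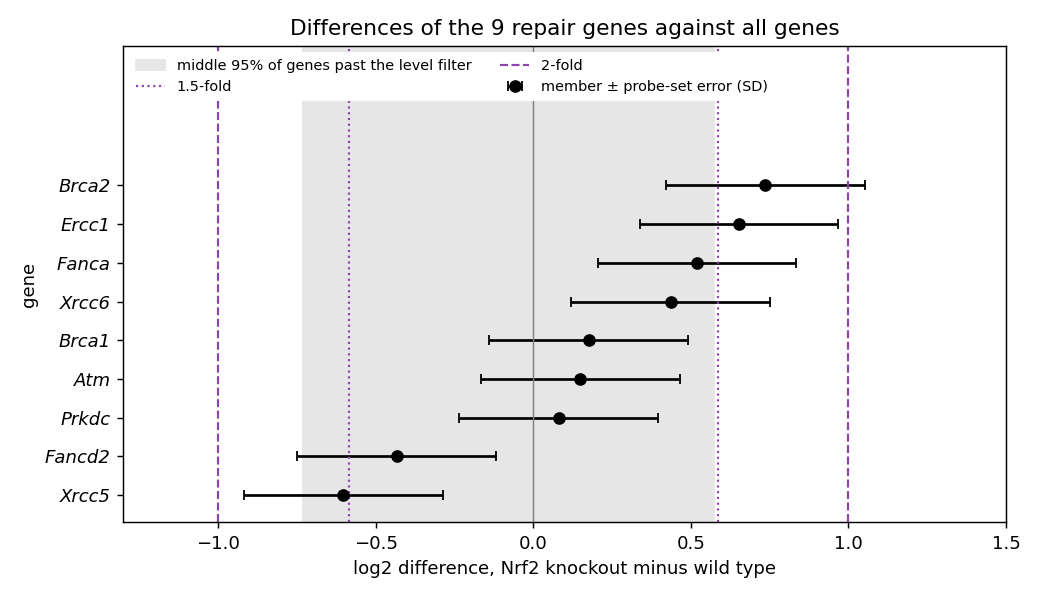
Log2 difference, knockout minus wild type (horizontal axis), of the 9 repair genes, with bars of 0.31 to each side for the probe-set error (SD over 515 genes), a grey band for the middle 95% of 9970 genes, and dotted and dashed lines at 1.5-fold and 2-fold. Brca2 at 0.74 and Ercc1 at 0.65 lie to the right of the band, and Xrcc5 at −0.60 is the lowest.

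Among the genes of homologous recombination, Brca2 had the highest difference of the 9 and Brca1 a small one. Brca2, whose product acts on the trimmed, single-stranded ends, had a log2 intensity of 7.90 in knockout cells, against 7.16 in wild-type cells. The knockout level was 1.67-fold that of wild type, a difference of 0.74, and 96.3% of genes past the filter had a smaller difference in either direction. Brca1, a ubiquitin ligase subunit that acts earlier on the break, was at 7.60 in knockout cells and 7.42 in wild-type cells. Its difference of 0.18 was smaller than the probe-set SD of 0.31, though not than the robust estimate, and that of its obligate partner Bard1, −0.21, had the opposite sign. Palb2, which tethers BRCA2 to BRCA1, was at 6.70 in knockout cells and 6.46 in wild-type cells, the wild-type value being below the filter level. The difference of Brca2 exceeded that of Brca1 by 0.56 and that of Palb2 by 0.50, against a probe-set error of 0.45 for the gap between 2 genes. These pairs and those below were chosen with values known, so a multiple of this error is a description and not a test.

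Of 26 recombination genes past the filter, both BRCA genes included, 16 were higher and 10 lower in the knockout array, with a median of 0.05. The list reached from Top3a at −0.38 to Gen1 at 0.75. In it 2 genes, Gen1 and Brca2, were at least 1.5-fold higher, with 0 at least 1.5-fold lower. Over all genes past the filter 2.34% were that much higher and 4.3% that much lower. Gen1, a nuclease that resolves Holliday junctions, was at 8.25 in knockout cells and 7.50 in wild-type cells. Rad54b, a motor protein of strand exchange, was at 8.28 and 7.74 in the same order, while its relative Rad54l, named after its value was seen, was at 8.60 and 8.88, a gap of 0.82 between their differences. The low end of the list held the topoisomerase Top3a, Rad52 at −0.31 and Sfr1 at −0.30. In the MRN complex that first grips the break, the nuclease Mre11a differed by 0.41, whereas Rad50 and Nbn, its partners, differed by 0.01 and −0.03.

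The Fanconi genes Fanca and Fancd2 differed in opposite directions. Fanca, a core complex subunit, was at 7.29 in knockout cells and 6.77 in wild-type cells, a difference of 0.52 or 1.43-fold. Its wild-type value was the lowest of the 18 values of the 9 genes and lay 0.20 above the filter level. Fancd2, the substrate of the core complex and the protein that marks crosslinked DNA, was at 6.98 in knockout cells and 7.42 in wild-type cells. Its difference was −0.43, which is 74.1% of the wild-type level. The gap between the differences of Fanca and Fancd2, a pair also chosen with values known, was 0.95. That was 2.14 times the probe-set error of such a gap. Fanci, which forms a dimer with FANCD2, was at 7.42 in knockout cells and 7.12 in wild-type cells, so the genes of that dimer also differed in sign, at −0.43 for Fancd2 and 0.30 for Fanci.

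Most of the core complex genes past the filter were lower, though several by little. Against 52.9% of all genes past the filter, 7 of these 9 genes were lower in the knockout array and 2 higher. The median of this list was −0.09. Fanca had the highest difference, Fancm was level at 0.003, and Fance and Fancg, a direct partner of FANCA, differed by −0.01 each. The lowest was Faap20, whose product binds FANCA, at 7.63 in knockout cells and 8.30 in wild-type cells, a difference of −0.68. It was the 1 gene of this list at least 1.5-fold lower. Fancl, the ubiquitin ligase of the complex, was at 7.26 and 7.72 in the same order, and Faap100 differed by −0.33.

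Ercc1 had the next highest difference after Brca2. It encodes the non-catalytic subunit of the XPF nuclease, which serves crosslink repair and nucleotide excision repair alike. Its log2 intensity was 7.81 in knockout cells and 7.16 in wild-type cells, a difference of 0.65 or 1.57-fold, and 95.1% of genes past the filter had a smaller difference. Ercc4, which encodes the catalytic partner, was below the filter in both arrays, at 6.48 and 6.52, a difference of −0.04. The gap of 0.70 between these partners was 1.56 times its probe-set error.

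Ercc1 stood at the top of both repair lists that contain it. In the list of FANCD2 and FANCI handling and incision, 7 of 11 genes past the filter were higher, with a median of 0.13. After Ercc1 its highest were Eme1, a partner of the MUS81 nuclease, at 0.58, and Rev3l, the catalytic subunit of a translesion polymerase, at 0.30. Its lowest were Fancd2, the USP1 cofactor Wdr48 at −0.36 and the FANCD2 deubiquitinase Usp1 at −0.22. In the nucleotide excision list 15 of 20 genes were lower, with a median of −0.20, and Ercc1 was the single one at least 1.5-fold higher. The 2 genes at least 1.5-fold lower were Uvssa at −0.65, which acts in transcription-coupled repair, and Gtf2h5 at −0.64, a subunit of the TFIIH factor. Another TFIIH subunit, Gtf2h3, differed by −0.57. Uvssa and Gtf2h3 were below the filter level in knockout cells, at 6.26 and 6.54, and passed through their wild-type values. Of the 18 genes of this list above the filter level in both arrays, 13 were lower, with a median of −0.12. Among the higher genes were the single-strand binding subunit Rpa2 at 0.44 and the nuclease Ercc5 at 0.36.

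The subunits of the Ku ring lay on opposite sides. Xrcc5, which encodes KU80, was at 8.57 in knockout cells and 9.17 in wild-type cells, the lowest difference of the 9 at −0.60. The wild-type level was 1.52-fold that of the knockout, just past the 1.5-fold size, and 3.98% of genes past the filter had a lower difference. With the arrays scaled by quantiles or by loess, the difference of −0.58 under each no longer reached 1.5-fold. Xrcc6, which encodes KU70, was at 9.33 in knockout cells and 8.89 in wild-type cells, a difference of 0.44 or 1.35-fold. The gap between the differences of the Ku genes was 1.04, or 2.33 times its probe-set error of 0.45. Prkdc, which encodes the catalytic subunit of the DNA-dependent protein kinase, was at 7.92 in knockout cells and 7.84 in wild-type cells, and its difference of 0.08 was the smallest of the 9.

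Of 10 end-joining genes past the filter, 6 were higher and 4 lower in the knockout array, with a median of 0.14. Poll, a gap-filling polymerase, was at 7.38 in knockout cells and 6.63 in wild-type cells, a difference of 0.75 and the highest in the list. The ligase Lig4 differed by 0.31 and its scaffold Xrcc4 by −0.29, so that this pair, like Ku, differed in sign, with a gap of 0.60. Xrcc5, Xrcc4 and Aplf, at −0.18, were the lowest of the list. Dntt, also named after its value was seen, which adds nucleotides to ends during antigen receptor joining and marks lymphoid priming, was at 11.31 in knockout cells and 11.07 in wild-type cells. In alternative end joining, 2 of 6 genes were higher and 4 lower, with a median of −0.03; Lig3 had the highest difference, 0.58, Lig1 was at 0.16, and Fen1, Xrcc1, Polq and Parp1 lay between −0.06 and −0.02.

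Atm, the kinase that signals double-strand breaks, was close to level. Its log2 intensity was 8.79 in knockout cells and 8.64 in wild-type cells, a difference of 0.15, and 45.2% of genes past the filter had a smaller one. Atr, the kinase that signals stalled replication forks, was at 8.55 in knockout cells and 8.04 in wild-type cells, a difference of 0.52. Their downstream kinases differed by 0.04 for Chek2 and −0.36 for Chek1. Of 27 break-signalling genes past the filter, 13 were higher and 14 lower, with a median of −0.02. At least 1.5-fold apart were 0 of the 27, against 6.64% of all genes past the filter. Of the checkpoint clamp subunits, Rad1 and Rad9a were at the opposite ends of this list, at 0.52 and −0.51, a gap of 1.03, and Hus1, named after its value was seen, lay between them at 0.04. Rif1, which limits end trimming, was higher by 0.50, and Uimc1, which targets BRCA1 to breaks, differed by −0.40.

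**Figure D4:**
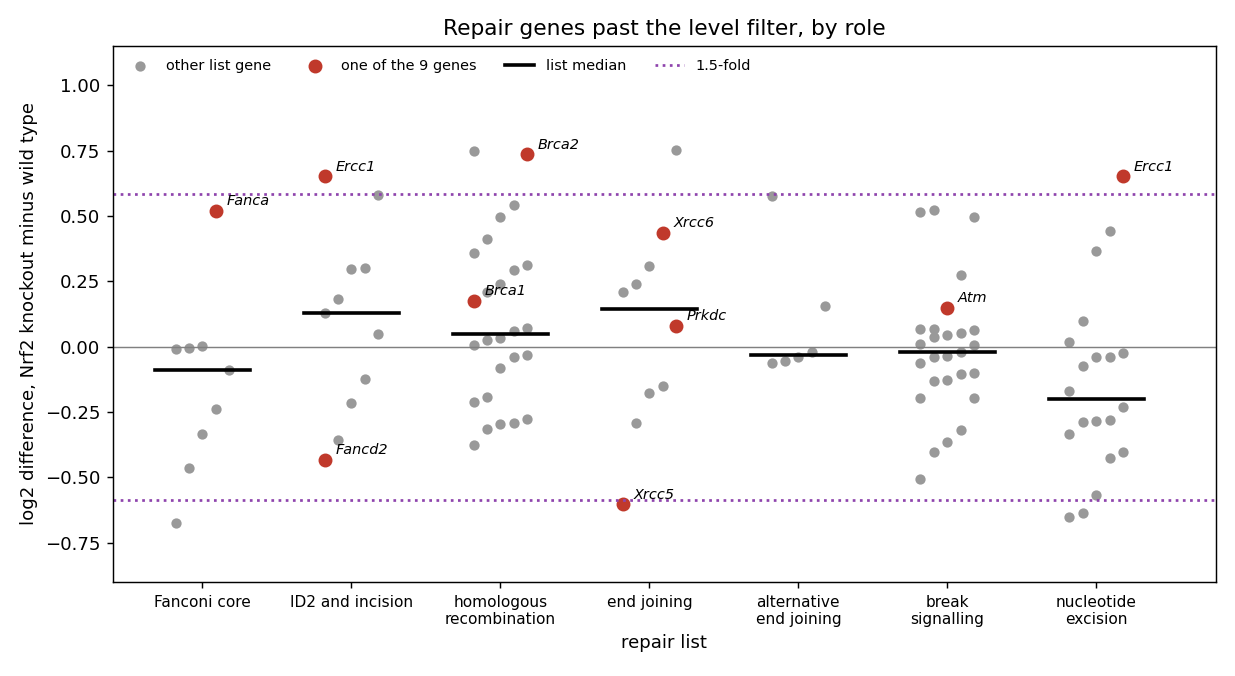
Log2 difference, knockout minus wild type (vertical axis), of every gene past the level filter in 7 repair lists, with the 9 repair genes in red and named, the other list genes in grey, a black bar at each list's median and dotted lines at 1.5-fold; sideways position within a list carries no value. Ercc1 tops the incision and nucleotide excision lists, Xrcc5 is the lowest of the end-joining list, and the list medians lie between −0.20 and 0.14.

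The genes of the 7 repair lists other than the 9 were closer to level. Of 112 with a probe set, 99 passed the filter, and 43 of these were higher and 56 lower in the knockout array, with a median of −0.03 and an SD of 0.30. At least 1.5-fold apart were 5 of the 99, or 5.05%, 2 higher (Gen1 and Poll) and 3 lower (Faap20, Uvssa and Gtf2h5), which is near the 6.64% of all genes. For the 9 genes the share was 33.3%, from 3 genes on 1 array per genotype. The 9 genes and the folds were chosen with earlier results of these data known, so this share is not that of an independent set. Whether the 9 differ from the rest of the repair genes was not tested.

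Within each array all 9 genes were above the median gene. In the knockout array Xrcc6 was at percentile 90.8 of the 19938 genes, Atm at 85.4 and Xrcc5 at 82.6, while Fancd2 was lowest at 57.7. In the wild-type array Xrcc5 was at percentile 89.0, Xrcc6 at 86.0 and Atm at 83.2, and Fanca was lowest at 53.4. Brca2 was at percentile 72.7 in knockout cells and 60.0 in wild-type cells, and Ercc1 at 71.3 and 60.0. Intensities of different genes also reflect how well their probes bind, so this order is one of signal and not of transcript number.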

How the data were processed

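Per the labels' protocols, RNA of 1 pool of sorted KSL cells per genotype was purified (Qiagen RNeasy microkit) and then amplified and biotin-labelled (NuGEN Ovation). The submitters' processing notes name Partek; how background, normalization and probe summary were handled is not given in the sources here. Each deposited value is the log2 intensity of a probe set on an array, a base inferred from the range, which reaches 13.8. After sorting, the arrays' values lay within 0.087 of each other, so any shift common to all genes would be hidden. Arrays carry no read depth.

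Of 28853 probe sets, 21789 had 1 gene symbol and were averaged by gene, giving 19938 genes. Listed symbols were matched to the annotation through Entrez IDs of GRCm38.p6. Genes whose mean of both arrays reached the median over genes passed the level filter. Differences are knockout minus wild type, with no further normalization, and were counted at 2-fold and 1.5-fold, with no test. The probe-set error is the root mean square, over genes with 2 probe sets, of the gap between their differences divided by the square root of 2; 16 gaps between named genes were computed, and the pairs were chosen with values known. Motifs were searched on both strands of 1 promoter per gene. The counting was tested on simulated data. Alternatives were median centring, quantile and loess scaling (smoothing fraction 0.3), the probe set of highest mean, other level filters and means. Members, lists and folds were chosen with earlier results of these data known. Named genes were the 9, Nfe2l2, direct partners, and in each repair list the genes at least 1.5-fold apart and the 3 highest and 3 lowest past the filter; marker genes were listed by name, and the text says where a gene was named otherwise. Python 3.11.15, numpy 2.4.6, pandas 2.3.3, statsmodels 0.14.6 and matplotlib 3.10.9 were used.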

Additional observations from a re-analysis of the deposited data

How the results depend on the processing

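No paired analysis was possible because each genotype has 1 array and no result comes from a test. Of 104 values under the alternatives, 103 stayed within 1 SD of probe-set error of the reported value or, for counts, within 1.5 times. That SD, 0.31, is larger than the median of the 9 and of every repair list. A median could thus change sign and still count as staying, as could a count of 2 in place of 3. The 103 is therefore no measure of how stable the medians are. The 104 include the 9 differences under the probe set of highest mean, which that setting could not change. The exception was the count of repair genes at least 1.5-fold apart at the filter of the 75th percentile, which was 1, Xrcc5, because Xrcc5, Xrcc6 and Atm alone of the 9 passed it. Each of the 9 differences kept its sign under the 4 alternatives for scaling and probe sets, and 7 were higher in each. With the probe set of highest mean this had to hold, because each of the 9 has 1 probe set. Centring moved every gene by the same 0.006, and the sorted values of the arrays already lay within 0.087 of each other. These settings thus left little room for a change of sign. With quantile or loess scaling the count at 1.5-fold was 2, without Xrcc5, and 0 were 2-fold apart in every setting tried. The median of the 9 ranged from 0.15 to 0.21. The end-joining median turned to −0.03 at the 75th percentile filter, over 4 genes. The break-signalling median ranged from −0.02 to 0.01 and that of alternative end joining from −0.04 to 0.09, so neither has a settled sign. The incision median was 0 with no level filter.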

Other observations

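Other DNA repair groups and aldehyde-clearing enzymes were listed after the values of the 9 genes were seen. They are described by their counts. Past the level filter the repair groups had medians between −0.06 and 0.16, and the aldehyde-clearing enzymes had a median of −0.18. Of 10 base excision repair genes past the filter, 7 were higher and 3 lower in the knockout array, with a median of 0.16. Ung, which removes uracil from DNA, had the highest difference, 0.58, with a wild-type value of 6.47, below the filter level. The 9 base excision repair genes above the filter level in both arrays had a median of 0.11. After Ung came the glycosylase Neil3 at 0.47, at 8.42 in knockout cells and 7.96 in wild-type cells. Ogg1, the glycosylase that removes oxidised guanine, had the lowest, at 7.82 in knockout cells and 8.29 in wild-type cells, a difference of −0.47. Of 4 mismatch repair genes past the filter, Msh3, Msh6 and Pms2 lay between −0.04 and 0.06, whereas Pms1, a subunit of a MutL complex, was at 8.49 in knockout cells and 7.67 in wild-type cells, a difference of 0.82.

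Translesion synthesis genes were higher in 5 and lower in 7 of 12 cases, with a median of −0.06. Primpol, which restarts stalled forks by priming, was at 6.97 in knockout cells and 7.57 in wild-type cells, and the RAD6 genes Ube2a and Ube2b differed by −0.31 and 0.32. Of 15 cohesin and SMC5/6 genes, 9 were higher and 6 lower, with a median of 0.03. At least 1.5-fold apart were 0 of the 15, against 6.64% of all genes past the filter. Of 4 aldehyde-clearing enzymes past the filter, whose task the Fanconi pathway backs up in mouse blood stem cells, 1 was higher and 3 lower, with a median of −0.18. Aldh9a1 was higher by 0.26 and Aldh1a1 differed by −0.34, while Adh5 was at 9.52 in knockout cells and 9.94 in wild-type cells and Aldh2 at 9.37 and 9.39. These genes were named after their values were seen.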
